A study of Drosophila melanogaster with 8 samples.

Results

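The cytosolic ribosomal protein genes and their paralogues were examined in mRNA-seq libraries of Drosophila melanogaster ring glands. Members were the genes whose symbol starts with RpL or RpS followed by a digit or by P, which took in copies marked a, b or -like. The rule found 92 of the 17558 genes in the table, 54 named for the large ribosomal subunit (RpL) and 38 for the small subunit (RpS). Control larvae carried the w[1118] background and are called WT, and the compared larvae carried kdm5[140], a null allele of the histone demethylase gene Kdm5. Both groups were wandering larvae of the third instar, reached at about 5 days after egg laying in WT and about 7 days in Kdm5[140], so genotype and age cannot be told apart. Each of the 4 libraries per genotype pooled 80 ring glands, and equal numbers of males and females were used. The ring gland joins the prothoracic gland, which makes ecdysone, with the corpus allatum and the corpus cardiacum, and in this whole tissue fewer cells of a type and less RNA per cell cannot be told apart.

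A ribosome holds a single copy of most of its proteins, and cells make the proteins of both subunits in matched amounts. In flies a reduced dose of many ribosomal protein genes slows growth and gives the Minute phenotype of short bristles and delayed development. Most ribosomal proteins are encoded by a single gene in flies, and several of the extra copies are known for expression in the ovary or testis.

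Libraries held 17131110 to 19494692 gene counts. The transcript of the targeted gene, listed under its older symbol lid (chr2L:5989400-5999501, dm6), stood at 172, 144, 144 and 155 CPM (a gene's counts per 1000000 counts of the library, with library sizes scaled by the trimmed mean of M values) in WT 1 to 4. It stood at 200, 193, 194 and 195 CPM in Kdm5[140] 1 to 4, with no overlap. Its level was higher in the libraries labelled Kdm5[140] (log2 fold change 0.35, SE 0.07, edgeR quasi-likelihood FDR = 0.0044, adjusted over all genes tested). Which of the counted exons the allele removes is not given in the sources used here, so this level does not check the labels. That call was lost in 6 of the 8 fits that each left out 1 library, all except those without WT 1 and without Kdm5[140] 3, with FDR up to 0.019. The 7 prothoracic gland markers summed to 41172 to 44178 CPM in WT and 30338 to 39373 CPM in Kdm5[140]. These markers did not move together, as spok fell (log2 fold change −0.83), dib and sro rose (0.56 and 1.01; edgeR FDR under 0.01 for all 3), and phm, sad, nvd and tor, at −0.22, −0.33, −0.24 and 0.53, did not pass the test. Akh of the corpus cardiacum and jhamt of the corpus allatum were present in every library. Fat body markers varied more between libraries than between groups, from 811 to 2508 CPM in WT and from 1104 to 5708 CPM in Kdm5[140]. Salivary gland markers ranged from 549 to 1250 CPM and from 233 to 2588 CPM. Neuronal markers ranged from 124 to 179 CPM in WT and from 159 to 223 CPM in Kdm5[140]. Among them elav was higher in Kdm5[140] (log2 fold change 0.39, edgeR FDR = 0.0050). The others, nSyb, Syt1 and brp, at 0.42, 0.86 and 0.29, did not pass the test.

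Ribosomal protein transcripts made up a large part of every library. They took 13.6%, 15.5%, 15.9% and 15.5% of gene counts in WT 1 to 4, a mean of 15.1% ± 1.06 (SD, n = 4). In Kdm5[140] 1 to 4 they took 13.3%, 14.7%, 15.3% and 14.1%, a mean of 14.3% ± 0.840 (SD, n = 4). The groups overlapped, and the means differed by less than the SD within WT, though each Kdm5[140] share lay below that of the same-numbered WT library. These are shares of unscaled counts. The factors that scale library sizes for CPM ran from 0.936 to 0.991 in WT and from 0.967 to 1.07 in Kdm5[140]. Large-subunit genes held 60.6% to 60.9% of these counts in WT and 60.2% to 60.8% in Kdm5[140], so the balance between subunits hardly varied among libraries.

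Most members were expressed within a narrow band. In WT, 77 members had mean levels of 705 to 3962 CPM, a 5.62-fold range. Per kilobase of the gene length given with the counts, these 77 ran from 693 to 10114 CPM with a median of 2113. That length need not be the length of the transcripts present. RpL41, the shortest ribosomal protein, was highest per length at 10114 CPM per kb. RpL27A followed at 3833 CPM per kb and RpS27A, made as a fusion with ubiquitin, at 3641 CPM per kb. RpLP1 and RpLP2, the acidic proteins of the stalk that recruits translation factors, stood at 3447 and 3339 CPM per kb. Below the band came RpL39 at 441 CPM and the copies RpS14b at 243, RpL34a at 225, RpL24-like at 126, RpS15Ab at 84.7 and RpLP0-like at 41.3 CPM. RpS5b at 1.09 CPM and RpS19b at 0.284 CPM were the lowest that entered the test. Per length the lowest tested members were RpS19b, RpS5b, RpLP0-like, RpS15Ab and RpL24-like, at 0.427, 1.14, 43.6, 117 and 163 CPM per kb. The order of levels per kb was much the same in both groups (Spearman's rho 0.96 over 85 genes, which share the same libraries).

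Of the 92 members 85 had enough counts for the test and 7 did not. The log2 fold change of Kdm5[140] over WT was negative for 74 of the 85 and positive for 11, with a median of −0.17 beside 0.02 over all 9317 genes tested. At FDR under 0.01, 7 members fell, against a background of 9.62% of all genes tested. The call in the higher direction was RpS19b, beside 7.91% of all genes, and since this gene passed the filter on low counts only through the Kdm5[140] libraries, where it is high, nothing is read from it. The 7 of 85 lie near that background in this fit and at this threshold, and most members had small values of one sign. The groups did not overlap for 19 members that were lower, beside 17.6% of all genes, and for 1 that was higher, beside 15.6%. Large-subunit genes had a median of −0.19 (50 tested, 6 fell) and small-subunit genes one of −0.13 (35 tested, 1 fell).

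**Figure D1:**
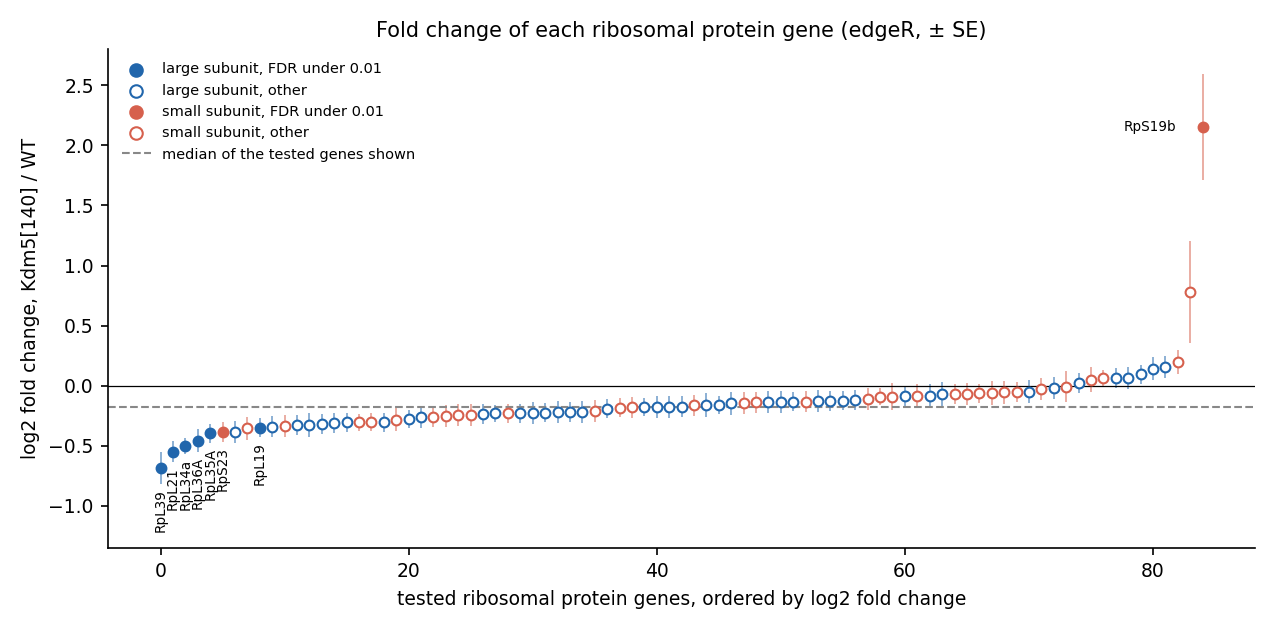
Log2 fold change of Kdm5[140] over WT (vertical axis, ± SE from edgeR) for the 85 tested ribosomal protein genes, ordered from lowest to highest; filled points passed FDR 0.01 and the dashed line is their median of −0.17. Values run close below 0 for 74 genes, and RpS19b at 2.15 stands far above the others.

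The counts of called members moved with single libraries. Leaving out WT 2, 3 or 4 left 3, 2 and 2 members lower, beside 5.82%, 5.63% and 6.79% of all genes in the same fits. Leaving out Kdm5[140] 1, 2 or 4 left 3, 2 and 3, beside 5.86%, 5.96% and 6.49%. Leaving out WT 1 gave 11 members lower, beside 10% of all genes, and leaving out Kdm5[140] 3 gave 21 of the 85, beside 9.42%. RpS19b was called higher without Kdm5[140] 2 or without Kdm5[140] 3, and in none of the other 6 such fits. DESeq2 called 22 members lower, beside 11.4% of the genes to which it gave an adjusted p, and 1 higher, beside 10.4%.

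The members called lower came from different places in the ribosome. RpL39 (chr2R:24061853-24062431), a small protein that lines the exit tunnel for the growing peptide, had 388, 398, 502 and 475 CPM in WT 1 to 4. In Kdm5[140] 1 to 4 it had 329, 225, 249 and 292 CPM. Every Kdm5[140] library lay below every WT library, and its mean fell from 441 ± 56.4 CPM to 274 ± 46.2 (SD over 4 libraries; log2 fold change −0.69, SE 0.13, edgeR FDR = 0.0039). The gene of RpL12, a base protein of the stalk, lies on the opposite strand at chr2R:24060378-24061860 and its exons reach into those of RpL39, and whether the counting used strand is not stated. RpL12 itself stood at 1927 ± 105 CPM in WT and 1862 ± 235 CPM in Kdm5[140] (SD, n = 4 each; FDR = 0.72). The call of RpL39 was lost in 4 of the 8 fits without 1 library, those without WT 3, WT 4, Kdm5[140] 2 or Kdm5[140] 3, where FDR reached 0.015.

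RpL21 (chr2L:22247111-22247875), a protein of the large subunit, had 1652, 1795, 1977 and 1777 CPM in WT 1 to 4 and 1166, 1190, 1392 and 1171 CPM in Kdm5[140] 1 to 4. The groups did not overlap, and the mean fell from 1800 ± 134 CPM to 1230 ± 109 (SD over 4 libraries; log2 fold change −0.55, SE 0.09, edgeR FDR = 0.0012). It was called in all 8 fits that left out 1 library. RpL34a (chr3R:26058420-26059267) had 218, 211, 242 and 228 CPM in WT 1 to 4 and 155, 159, 170 and 152 CPM in Kdm5[140] 1 to 4. It fell from 225 ± 13.5 CPM to 159 ± 7.92 (SD over 4 libraries; log2 fold change −0.50, SE 0.07, edgeR FDR = 0.00045), the lowest FDR of any member. It too was called in all 8 fits without 1 library, and its within-group spread was small beside the gap between groups.

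RpL36A (chr2L:8041873-8042909), which lies near the site where spent tRNA leaves the large subunit, had 826, 837, 1049 and 847 CPM in WT 1 to 4. In Kdm5[140] 1 to 4 it had 690, 574, 674 and 655 CPM (log2 fold change −0.46, SE 0.10, edgeR FDR = 0.0060). WT 3 stood above the other WT libraries, and the groups did not overlap. Exons of RpL36A also overlap those of CCDC53 on the other strand. RpL35A (chr3R:5465630-5467101), another protein of the large subunit, had 1131, 1251, 1356 and 1280 CPM in WT 1 to 4 and 897, 963, 1041 and 910 CPM in Kdm5[140] 1 to 4 (log2 fold change −0.40, SE 0.08, edgeR FDR = 0.0046). These values did not overlap either.

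RpS23 (chr2R:14215096-14216627), a protein of the decoding centre, was the only small-subunit gene called lower. It had 1936, 2085, 2188 and 2074 CPM in WT 1 to 4 and 1487, 1510, 1828 and 1524 CPM in Kdm5[140] 1 to 4 (log2 fold change −0.38, SE 0.08, edgeR FDR = 0.0072). Kdm5[140] 3 stood above the other Kdm5[140] libraries and still below WT 1. RpL19 (chr2R:24967877-24969547), which reaches across to the small subunit, had 2576, 2685, 2821 and 2587 CPM in WT 1 to 4 and 1888, 2133, 2316 and 2023 CPM in Kdm5[140] 1 to 4 (log2 fold change −0.35, SE 0.08, edgeR FDR = 0.0080). The groups did not overlap. RpL36A was called in 1 of the 8 fits without 1 library (without WT 1), and RpL35A, RpS23 and RpL19 were each called in 2 of them (without WT 1 and without Kdm5[140] 3), with FDR up to 0.021, 0.017, 0.029 and 0.029 in that order.

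**Figure D2:**
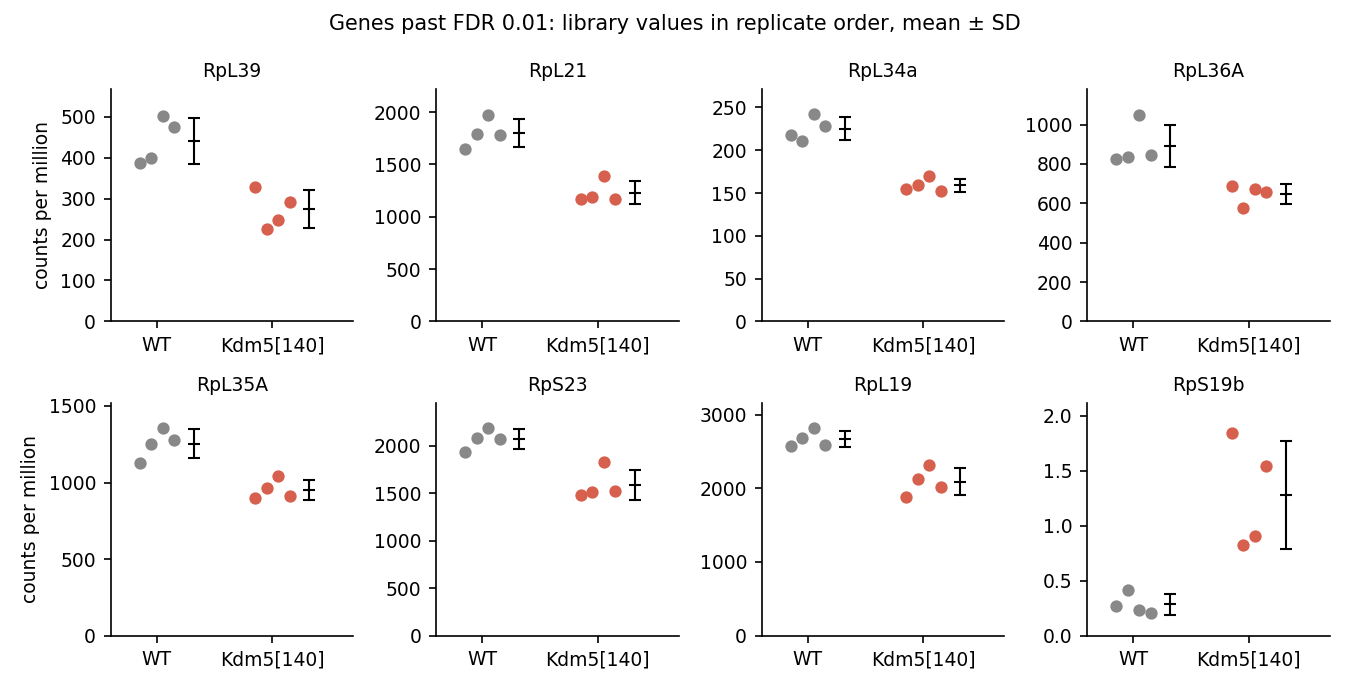
CPM in each library (vertical axes, from 0) of the 8 genes past FDR 0.01, in replicate order from left to right, with mean ± SD of 4 libraries beside them. In all 8 panels the WT and Kdm5[140] points do not overlap, and RpS19b lies below 2 CPM in every library.

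The next most negative values missed the threshold by edgeR. RpL23 had a log2 fold change of −0.38 (SE 0.09, edgeR FDR = 0.012), RpS15 of the decoding centre one of −0.36 (SE 0.09, FDR = 0.017), and RpL10, a late-joining large-subunit protein, one of −0.34 (SE 0.09, FDR = 0.015). DESeq2 called all of these lower (DESeq2 FDR = 0.00038, 0.0010 and 0.00068 in that order), beside 11.4% of the genes to which it gave an adjusted p. In each the Kdm5[140] libraries lay below the WT libraries, as in 1474 to 1845 CPM against 1117 to 1384 CPM for RpL23. At the other end stood RpS5b, with 0.78 (SE 0.43, FDR = 0.20), RpS26, with 0.20 (SE 0.10, FDR = 0.17), and RpL37a, with 0.15 (SE 0.09, FDR = 0.23). RpS26, which sits where mRNA leaves the small subunit, had 2221, 2558, 2567 and 2503 CPM in WT 1 to 4 and 2437, 2905, 3290 and 2646 CPM in Kdm5[140] 1 to 4. The groups overlapped for all 3 of these.

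Members were also grouped by place in the ribosome, with groups drawn up when their values were known. Values ran widely within some groups and lay close together in others. The 9 proteins around the exit tunnel ran from −0.69 for RpL39 to 0.14 for RpL23A. By edgeR 2 of them fell (RpL39 and RpL19), beside 9.62% of all genes tested. The 4 stalk proteins RpLP0, RpLP1, RpLP2 and RpL12 ran from −0.26 to −0.05 with none called at the threshold by edgeR, while DESeq2 called RpLP2 lower. RpL5 and RpL11, which enter the large subunit together with its smallest RNA, had −0.09 and −0.12. At the mRNA entry site RpS2, RpS3 and RpS30 ran from −0.31 to −0.06 with none called by edgeR, while DESeq2 called RpS3 lower. The 5 genes of the exit site ran from −0.24 for RpS5a to 0.20 for RpS26. The 2 proteins of the decoding centre, RpS23 and RpS15, had −0.38 and −0.36, the lowest median of these groups. By edgeR 1 of them fell (RpS23), beside the same 9.62% of all genes. DESeq2 called both lower, beside 11.4%. The ubiquitin fusions differed, with −0.25 for RpS27A and 0.02 for RpL40, neither of which passed the test. In none of these groups did every member pass the edgeR test.

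Within each genotype, members were high or low together from library to library. WT 1 was the lowest WT library for 82 of the 85 tested members, whereas it was lowest for 35.0% of all genes tested. WT 3 was the highest WT library for 75. Kdm5[140] 3 was the highest Kdm5[140] library for 81 members, against 36.7% of all genes, and Kdm5[140] 1 was the lowest for 76, against 25.2%. Among the 77 members above 500 CPM, the median deviation from the genotype's mean log2 CPM was −0.11 in WT 1, 0.02 in WT 2, 0.08 in WT 3 and 0.0038 in WT 4. It was −0.13 in Kdm5[140] 1, 0.03 in Kdm5[140] 2, 0.19 in Kdm5[140] 3 and −0.07 in Kdm5[140] 4. The spread between Kdm5[140] 1 and Kdm5[140] 3 was therefore larger than the median difference of −0.17 between genotypes, and the members' values are not independent of one another.

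The libraries at these extremes also differed in tissue markers. WT 1 had the highest prothoracic gland sum of any WT library, 44178 CPM, the highest fat body sum, 2508 CPM, and the lowest salivary gland sum, 549 CPM. WT 3 had a salivary gland sum of 992 CPM, below the 1250 CPM of WT 2, and the lowest neuronal sum of any WT library, 124 CPM. Kdm5[140] 1 had the lowest salivary gland sum of any Kdm5[140] library, 233 CPM. Kdm5[140] 3 had the highest prothoracic gland sum among Kdm5[140] libraries, 39373 CPM, the highest salivary gland sum, 2588 CPM, and the lowest fat body sum, 1104 CPM. Its neuronal sum, 159 CPM, was also the lowest among Kdm5[140] libraries. The part of tissue composition in the members' levels was not tested.

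**Figure D3:**
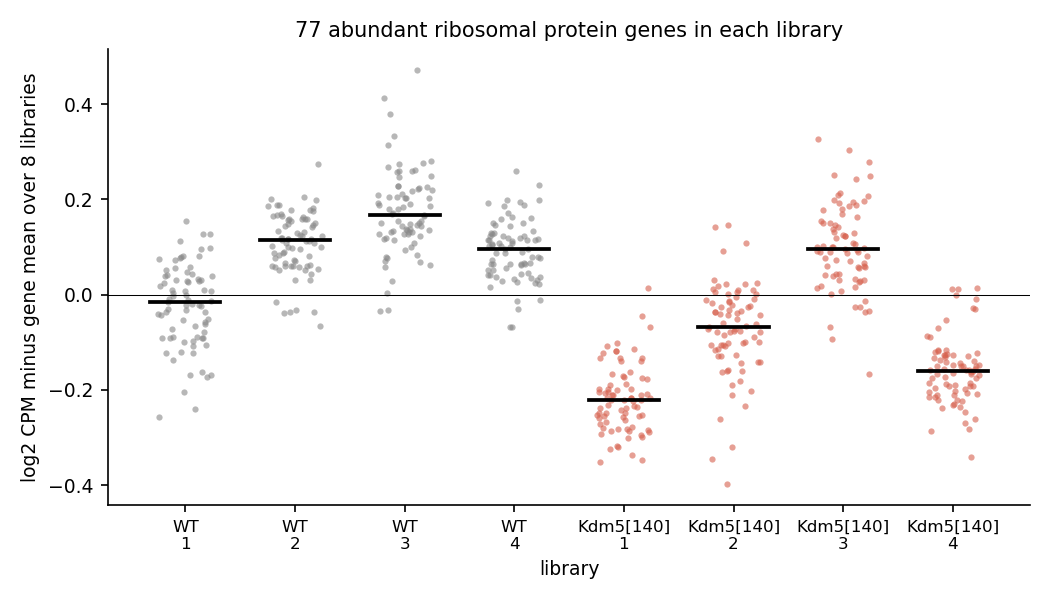
Log2 CPM of 77 ribosomal protein genes in each library, less each gene's own mean over the 8 libraries (vertical axis); points are genes and bars are medians. WT 1 lies lowest among WT libraries and Kdm5[140] 3 lies within the range of the WT libraries.

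When each library was scaled to the summed counts of its ribosomal protein genes, a choice made after seeing the data, the changes within the set could be read apart from the set's overall level. This scaling makes the members' summed counts equal in every library. By design it therefore puts members on both sides of 0, and their median was 0.0041. It moved the median of all genes to 0.20 and turned the split of all calls from 54.9% lower to 29.7% lower. On this scale 4 members were lower (RpL21, RpL35A, RpS23 and RpS15), beside 4.37% of all genes, and 8 were higher (RpL40, RpL35, RpL36, RpL15, RpL23A, RpL37a, RpS26 and RpS19b), beside 10.3%. RpL15, RpL23A, RpL35, RpL36 and RpL40 are named here because of these values. Both counts of members, out of 85 tested, lie near those shares over all genes, and nothing is read from RpS19b here either. RpL21 took 1.14%, 1.13%, 1.19% and 1.13% of the ribosomal protein counts in WT 1 to 4 and 0.92%, 0.85%, 0.88% and 0.89% in Kdm5[140] 1 to 4. RpL23A, a protein at the mouth of the exit tunnel, took 2.00%, 2.01%, 1.93% and 2.04% in WT 1 to 4 and 2.35%, 2.56%, 2.51% and 2.46% in Kdm5[140] 1 to 4. The groups did not overlap for either gene. RpS26 took 1.53%, 1.61%, 1.55% and 1.60% in WT 1 to 4 and 1.93%, 2.07%, 2.08% and 2.01% in Kdm5[140] 1 to 4 (log2 fold change 0.36, SE 0.04, edgeR FDR = 0.00037). RpL37a ran from 1.05% to 1.15% in WT and from 1.37% to 1.40% in Kdm5[140]. RpL34a, RpL36A, RpL39 and RpL19, called lower on the library scale, kept negative values of −0.33, −0.27, −0.49 and −0.18 without passing the test. RpS23 took 1.32% to 1.34% in WT and 1.08% to 1.18% in Kdm5[140].

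The X chromosome holds 14 members, all of which were tested. Their median log2 fold change was −0.07, from −0.24 for RpS5a to 0.15 for RpL37a, beside 0.03 over the 1570 X-linked genes tested. The 71 autosomal members tested had a median of −0.18, beside 0.02 over autosomal genes. None of the 14 was called by edgeR (2 were lower and 0 higher at an unadjusted p under 0.05, and DESeq2 called 0 lower), and none had groups that did not overlap in the lower direction, beside 13.6% of all X-linked genes tested. Among the 71 autosomal members 19 did, beside 18.5% of all autosomal genes. All 7 members that fell were autosomal, with 2 on 2L, 3 on 2R and 2 on 3R, beside 9.62% of all genes tested. The autosomes held 71 of the 85 tested members, so this count does not set the X chromosome apart. The medians by arm were −0.21 on 2L, −0.18 on 2R, −0.16 on 3L and −0.18 on 3R, and RpS3A on chromosome 4 had −0.23. The difference between X-linked and autosomal members was not tested.

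**Figure D4:**
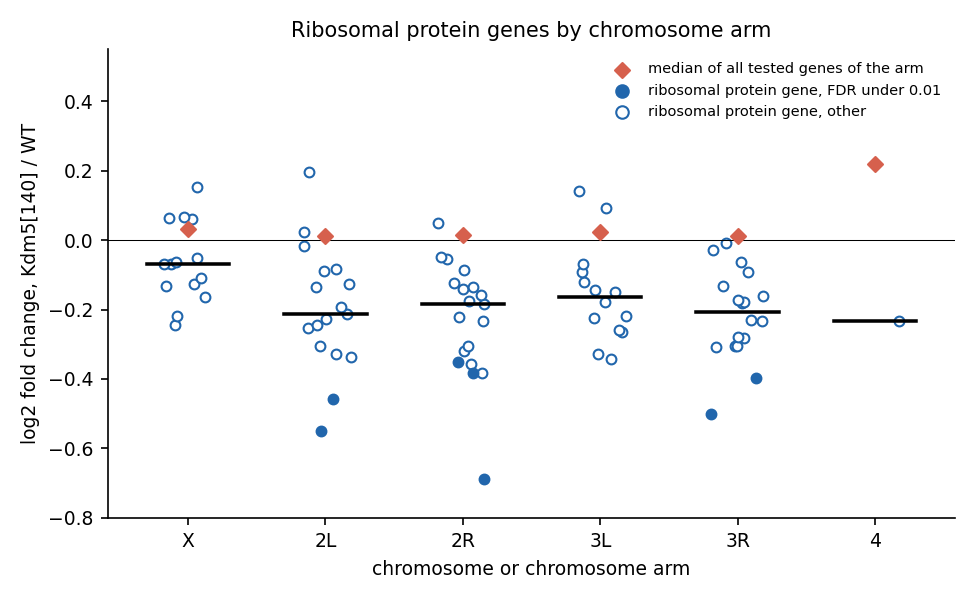
Log2 fold change of 83 ribosomal protein genes at 5 CPM or more in WT by chromosome arm (horizontal axis), with the median of the genes shown as a bar and the median of all tested genes of the arm as a diamond. The median of the X-linked members, −0.07, lies nearest to 0.

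Ribosomal protein transcripts are short, and over all genes tested the log2 fold change rose with gene length. The shortest sixth of these genes (up to 1065 bases) had a median log2 fold change of −0.11 and the longest sixth one of 0.09. That shortest sixth held 58 of the 85 tested members, with a median of −0.16. The next sixth held 24, with a median of −0.20 beside −0.03 over all genes of those lengths. With an offset for gene length 1 member was lower (RpL21), beside 5.42% of all genes, 2 were higher (RpS19b and RpS26), beside 7.5%, and the members' median was −0.0077 beside 0.08 over all genes. The split of all calls was then 41.9% lower. Among the 77 members above 500 CPM the log2 fold change had a Pearson's r of 0.15 and a Spearman's rho of 0.07 with length, a description over genes that share all 8 libraries. The cause of the relation with length over all genes was not tested.

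Many ribosomal protein genes carry small nucleolar RNAs, which guide the modification of ribosomal RNA, within their introns. In the annotation 28 tested members held at least 1 such gene, and these had a median of −0.14 with 1 that fell (RpL36A). The 57 others had a median of −0.18 with 6 that fell. Over all genes tested 9.62% fell, and so few calls do not set the 2 groups apart. Values of the 2 groups lay close together.

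Fly ribosomal proteins with paralogues allow the copies to be set beside each other. Of the 14 pairs compared, 5 had a second copy with over 1000 counts in WT. RpL34a took 15.05%, 13.5%, 14.3% and 14.4% of the counts of RpL34a and RpL34b together in WT 1 to 4 and 12.6%, 12.2%, 11.8% and 12.1% in Kdm5[140] 1 to 4. These shares did not overlap, and their means were 14.3% ± 0.634 and 12.2% ± 0.352 (SD, n = 4 each). RpL34b itself stood at 1348 ± 88.9 CPM in WT and 1149 ± 89.8 CPM in Kdm5[140] (log2 fold change −0.23, SE 0.08, edgeR FDR = 0.052). The copies encode closely related proteins, so reads may have been divided or lost between them in the counting.

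RpS14a (chrX:7933742-7934677) and RpS14b (chrX:7934898-7935792) are neighbours that encode the same small-subunit protein. RpS14b took 22.2%, 20.8%, 21.0% and 20.8% of the pair's counts in WT 1 to 4 and 22.2%, 22.8%, 22.4% and 22.8% in Kdm5[140] 1 to 4, so that only WT 1 reached into the Kdm5[140] range. RpS15Ab took 5.79% ± 0.291 of the counts of its pair with RpS15Aa in WT and 6.27% ± 0.292 in Kdm5[140]. RpL24-like, an assembly factor related to RpL24, took 6.74% ± 0.335 and 7.19% ± 0.382 of its pair. RpLP0-like, an assembly factor related to the stalk protein RpLP0, took 1.67% ± 0.0790 and 1.63% ± 0.0785 (SD, n = 4 each throughout). In these last 3 pairs the groups overlapped. Per kilobase of the given gene length the mean shares in WT and Kdm5[140] were 19.95% and 17.1% for RpL34a, 28.4% and 29.9% for RpS14b, and 7.42% and 8.02% for RpS15Ab. They were 10.6% and 11.3% for RpL24-like and 2.32% and 2.27% for RpLP0-like. The main copies RpL24, RpLP0, RpS14a and RpS15Aa did not pass the test (log2 fold changes −0.23, −0.26, −0.05 and −0.07), and neither did RpL24-like, RpLP0-like, RpS14b and RpS15Ab (−0.13, −0.31, 0.06 and 0.05).

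**Figure D5:**
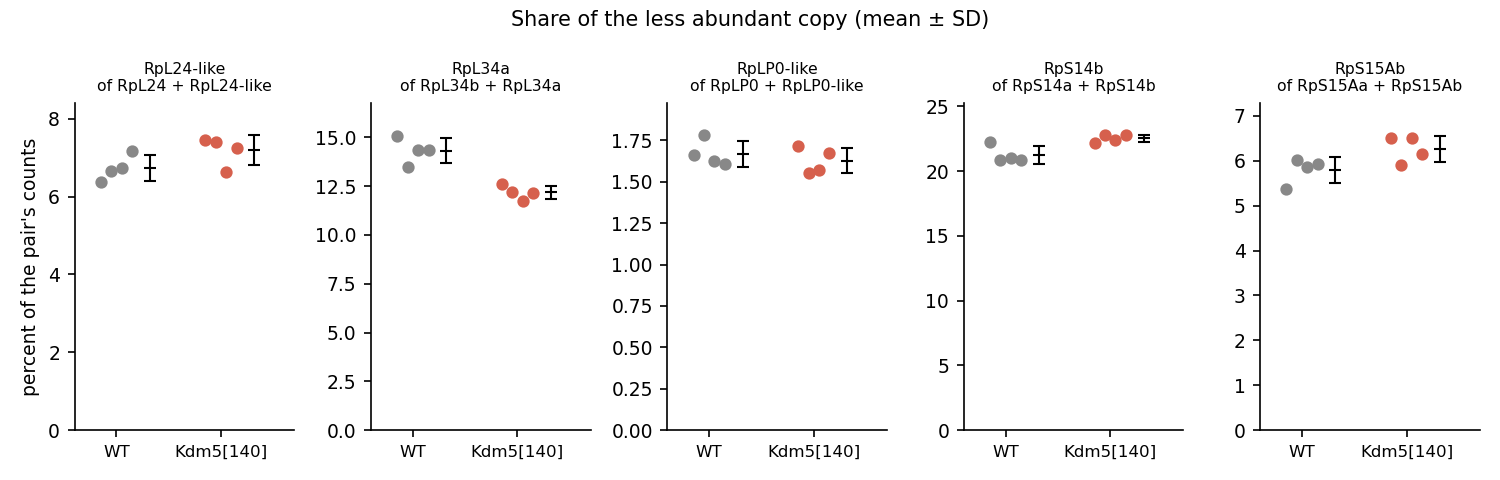
Percent of a pair's counts on the less abundant copy in each library (vertical axes, from 0), with mean ± SD of 4 libraries. The share of RpL34a is lower in every Kdm5[140] library than in every WT library, and the groups overlap in the other 4 pairs.

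RpS19b (chr3R:23932729-23933530), a copy of RpS19a known for expression in the germ line, had a level in Kdm5[140] above that in WT. It had 5, 7, 4 and 4 counts in WT 1 to 4 and 36, 15, 15 and 31 counts in Kdm5[140] 1 to 4 (log2 fold change 2.15, SE 0.44, edgeR FDR = 0.0052). It entered the test only through its counts in Kdm5[140], so the call is a description. It was not called when no filter on low counts was used, and a floor of 5 CPM left it out. Its share of the counts of RpS19a and RpS19b was 0.0130% ± 0.00424 in WT and 0.0639% ± 0.0317 in Kdm5[140] (SD, n = 4 each). RpS19a supplied nearly all counts of the pair in both groups, at 2187 ± 123 CPM in WT and 2096 ± 285 CPM in Kdm5[140].

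Other scarce copies known from the ovary or testis had counts of the same order. RpS5b had 10, 25, 24 and 17 counts in WT 1 to 4 and 53, 31, 16 and 41 in Kdm5[140] 1 to 4, and the groups overlapped. RpS10a was not tested, with 2, 0, 0 and 0 counts in WT and 2, 9, 3 and 9 in Kdm5[140]. Summed over libraries its ratio of Kdm5[140] to WT was 10.98 (95% exact interval 2.71 to 96.1 from 2 and 23 counts, covering counting error only). RpL22-like was not tested either, with 15 counts in all of WT and 12 in Kdm5[140] (ratio 0.764, interval 0.327 to 1.75). RpL10Aa had 1 count in WT and 9 in Kdm5[140], all of the latter in Kdm5[140] 4 (ratio 8.60, interval 1.19 to 377).

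The remaining untested copies were at or under the floor of 3 counts in both groups. RpS28a had 3 counts, all in Kdm5[140] 2, RpL7-like had 2 counts in WT 4, RpL37b had 1 count in Kdm5[140] 4, and RpS28-like had 0 counts, which allows up to 0.149 to 0.181 CPM per library. Their partners RpS28b, RpL7, RpL37a, RpS10b, RpL22, RpL10Ab and RpS5a had means of 1378 CPM or more in both groups, and none of these was called. The 8 germline markers summed to 3.89 to 7.21 CPM in WT and 2.81 to 4.35 CPM in Kdm5[140], of which 5 were too scarce to test and osk, aub and bgcn did not pass. Whether germ cells had a part in the counts of RpS19b was not tested. The 5 testis markers summed to 0.357 to 0.713 CPM and 0.409 to 2.34 CPM, and at these levels every testis marker was too scarce to test and aly had no count in any WT library.

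Genes outside the symbol rule gave a setting for these values. The ribosomal proteins sta and Rack1 had log2 fold changes of −0.12 (SE 0.09, edgeR FDR = 0.37) and 0.04 (SE 0.09, FDR = 0.76). Among 21 ribosome biogenesis factors 6 fell and 0 rose, beside the backgrounds of 9.62% and 7.91% above, and 19 of the 21 had negative values with a median of −0.23. None of the 21 was higher at an unadjusted p under 0.05, and DESeq2 called 9 lower and 0 higher. The 6 that fell were Nop56 of the box C/D particles, Nop60B, the pseudouridine synthase, Nopp140, a nucleolar chaperone of such particles, Ns1, a nucleolar GTPase, pit, a nucleolar RNA helicase, and vito, a nucleolar protein. Nopp140 had 195, 195, 205 and 206 CPM in WT 1 to 4 and 167, 157, 169 and 156 CPM in Kdm5[140] 1 to 4 (log2 fold change −0.30, SE 0.06, edgeR FDR = 0.0030). The largest difference among the 21 was that of vito, from 13.2 ± 1.72 CPM to 7.49 ± 0.677 (SD over 4 libraries; log2 fold change −0.82, SE 0.14, edgeR FDR = 0.0019), which was called in all 8 fits without 1 library. Nop56, Nop60B, Nopp140, Ns1 and pit were called in 1, 2, 4, 2 and 1 of those 8 fits. Leaving out WT 1 gave 9 of the 21 lower and leaving out Kdm5[140] 3 gave 4, while leaving out WT 2, 3 or 4 gave 2, 1 and 1 and leaving out Kdm5[140] 1, 2 or 4 gave 2, 2 and 1. An offset for gene length and scaling to ribosomal protein counts each left 1 of the 21 called lower.

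Neither of the other lists held a call at FDR under 0.01. In the list of 4 RNA polymerase I genes (RpI1, RpI135, RpI12 and Tif-IA) edgeR called 0, DESeq2 called 0, and 1 was lower and 0 were higher at an unadjusted p under 0.05, with a median of −0.18. Among 11 regulators of ribosomal protein genes or ribosome number, including Myc, Tor, Thor, larp, Dref, M1BP and Xrp1, edgeR and DESeq2 called 0. In that list 1 was lower and 1 was higher at an unadjusted p under 0.05, with a median of 0.02.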

How the data were processed

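Poly(A)-selected RNA of 4 WT and 4 Kdm5[140] libraries was sequenced as paired ends. Per the labels and the study's methods, the authors aligned reads to dm6 with HISAT2 2.0.5, used StringTie 1.3.3b, and deposited raw counts per gene from featureCounts 1.5.0-p3. Whether counting used strand is not stated. The authors also deposited FPKM values, a mean normalized signal per genotype, and their DESeq2 1.20.0 comparison as log2 fold changes and p-values, none of which was used.

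Counts were tested with edgeR 4.0.16 in R 4.3.3 (TMM factors, filterByExpr, robust quasi-likelihood fit, Benjamini-Hochberg over 9317 genes, FDR under 0.01). DESeq2 1.42.0 and limma 3.58.1 voom served as alternatives, together with other scalings, filters, a length offset, a replicate block, and leaving out each library. Tables were made with Python 3.11.15 and pandas 2.3.3. Floors were 3 counts, and intervals cover counting error only. No source says that replicates came from separate cultures or days, so p-values measure the spread between pools. All replicate pairs differed beyond sampling noise. In a check of the code, counts were simulated for each gene independently at 1 fixed dispersion, without shifts shared by genes of a library. There edgeR found 41 of 64 genes changed by 0.5, 62 of 65 by 1 and 65 of 65 by 2 on the log2 scale. Changes as small as the members' median of −0.17 were not simulated, so this gives no power for them.

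Named genes were every called member, every paralogue copy listed, the 5 highest and 5 lowest per kilobase, the 3 most negative and 3 most positive uncalled members, all untested members, lid, and called genes of the related lists. Members and lists were chosen with earlier results of these data known. Of the 92 members 87 matched the BDGP6.54 annotation by ID and 5 by symbol, and 90 had the same coordinates there. Exons of 25 members overlap a gene on the opposite strand and those of 6 a gene on the same strand.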

Additional observations from a re-analysis of the deposited data

Results flagged for a closer look

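Among 88 groups of 4 libraries tested, 14 had a library whose gap to the nearest of the others passed Dixon's 95% critical value as a share of the group's range, where chance flags about 1 in 20. WT 1 was low for RpL22 (1337 CPM, others 1502 to 1530), RpS15Ab (73.9 CPM, others 86.8 to 89.3) and RpS19a (2005 CPM, others 2224 to 2269). WT 3 was high for RpL36A, at 1049 CPM beside 826 to 847. Kdm5[140] 3 was high for RpL21 (1392 CPM, others 1166 to 1190), RpLP0-like (36.9 CPM, others 31.9 to 32.6), RpS15Ab (106 CPM, others 80.2 to 83.3) and RpS23 (1828 CPM, others 1487 to 1524). The other 6 are copies with counts in a single library of a group: RpL10Aa at 0.0549 CPM in WT 1 and 0.448 CPM in Kdm5[140] 4, RpS10a at 0.110 CPM in WT 1, RpL37b at 0.0498 CPM in Kdm5[140] 4, RpL7-like at 0.105 CPM in WT 4 and RpS28a at 0.166 CPM in Kdm5[140] 2.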

How the results depend on the processing

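The 7 members lower and 1 higher were the same genes with DESeq2 size factors, with TMM factors computed without ribosomal protein genes and with upper quartile scaling. Voom in limma gave 9 of 85 members lower and 1 higher, beside 881 and 706 of 9317 genes. No filter gave 6 of 91 members lower, beside 859 of 14672 genes, and a floor of 5 CPM 8 of 83, beside 733 of 7386 genes. DESeq2 gave 22 lower, the gene length offset 1 and scaling to ribosomal protein counts 4, each beside the share given above. FDR under 0.05 gave 25 of 85 members lower, beside 1536 of 9317 genes, so nearness to the background depended on the setting. Members higher numbered 0 without a filter, 0 at 5 CPM or more, 2 with the length offset and 8 when scaled to ribosomal protein counts. Over all genes tested, deviations from group means in same-numbered libraries had correlations of 0.0727, 0.116, 0.189 and −0.117. Between libraries of different numbers they ran from −0.26 to 0.17. Most members, however, were lowest in library 1 and highest in library 3 of both genotypes. Whether the numbers pair the libraries is therefore not settled. The fit with a replicate block gave 19 of 85 members lower, beside 906 of 9317 genes. Of the 19, 6 were called without the block, and 0 members were higher. Leaving out each library gave 2 to 21 members lower, 0 to 1 higher, 537 to 957 genes lower, 423 to 870 genes higher and lid at 0.31 to 0.40. The members' median log2 fold change was −0.0077 with the length offset and 0.0041, near 0 by design, when scaled to ribosomal protein counts. On the latter scale lid was 0.52 (edgeR FDR = 0.012). Genes lower numbered 505 with the length offset, 407 when scaled to ribosomal protein counts and 1536 at FDR under 0.05. Genes higher numbered 1160 with DESeq2 and 1339 at FDR under 0.05. As a share of nuclear protein-coding counts, members took 15.3% in Kdm5[140] and 16.2% in WT.

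No called member reversed. Uncalled members reversed with the length offset (RpL22 0.059, RpL24-like 0.074, RpL27A 0.22, RpLP1 0.012, RpLP2 0.018, RpS14a 0.13, RpS15Aa 0.089 and RpS19a 0.049). They reversed when scaled to ribosomal protein counts, which by design puts members on both sides of 0 (RpL22 0.098, RpL24-like 0.043, RpL27A 0.15, RpL7 0.032, RpS10b 0.062, RpS14a 0.12, RpS15Aa 0.098, RpS19a 0.11 and RpS28b 0.012). RpL27A also reached 0.018 at 5 CPM or more. With a library left out, RpL27A ran from −0.093 to 0.019, RpS15Ab from −0.057 to 0.090 and RpS19a from −0.15 to 0.00060. The causes were not tested.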
